A study of Mus musculus with 9 samples.

Results

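Retinoic acid receptors, the proteins that bind retinoic acid inside the cell, and the enzymes and membrane receptor that set its supply were followed through RNA-seq of differentiated mouse pluripotent stem cells (PSCs). The 9 genes were taken by symbol from tables of 56691 genes and each was listed once: the nuclear receptors Rara, Rarb and Rarg, the binding proteins Crabp1 and Crabp2, the vitamin A receptor Stra6, and the enzymes Dhrs3, Aldh1a2 and Cyp26a1. In the order given they are ENSMUSG00000037992, ENSMUSG00000017491 and ENSMUSG00000001288 (chromosomes 11, 14 and 15), ENSMUSG00000032291 and ENSMUSG00000004885 (9 and 3), ENSMUSG00000032327 (9), and ENSMUSG00000066026, ENSMUSG00000013584 and ENSMUSG00000024987 (4, 9 and 19). BVSC PSCs carry reporters of Blimp1 (the gene Prdm1, mVenus, BV) and Stella (the gene Dppa3, CFP), and were differentiated as embryoid bodies (EBs) in medium with serum, from which BV+ PGC-like cells (PGCLCs) and BV- somatic cells were sorted. Cells of the NRF1 overexpression (OE) groups carried a doxycycline-inducible Nrf1 cDNA, control cells (Ctrl) carried the empty vector, and the cells of all 4 groups were given 1.5 µg/mL doxycycline from day 2 to day 5. There were 2 libraries of BV+ cells with NRF1 OE, 2 of BV+ cells with Ctrl, 3 of BV- cells with NRF1 OE and 2 of BV- cells with Ctrl. The transgenes were delivered by lentivirus, and nothing in the labels ties a library to a particular culture or sort, so p-values measure the spread between these libraries.

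Retinoic acid is made from vitamin A (retinol). STRA6 takes up retinol, DHRS3 reduces retinal back to retinol, ALDH1A2 oxidizes retinal to retinoic acid, and CYP26A1 breaks retinoic acid down. CRABP1 and CRABP2 carry retinoic acid in the cytoplasm, CRABP2 towards the nucleus, where RARα, RARβ and RARγ bind DNA as dimers with retinoid X receptors. In the embryonic gonad retinoic acid induces Stra8 and entry into meiosis in germ cells of females, and it is also a widely used agent for driving PSCs out of pluripotency.

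The libraries held between 13702162 and 19625460 counts, and 22921 to 25896 genes had a count. Their labels were checked first. Nrf1 itself lay at 90.4 to 105 CPM (counts scaled to library size with TMM factors) in Ctrl libraries and at 95.7 to 126 CPM in NRF1 OE libraries, a log2 fold change of 0.10 in BV+ cells (edgeR quasi-likelihood test, p adjusted over all genes = 0.489) and 0.26 in BV- cells (adjusted p = 0.0718). A rise of Nrf1 with NRF1 OE was thus not called in either population, whether reads of the transgene were counted for the gene was not tested, and NRF1 OE below names the libraries as labelled. Prdm1, the gene behind the BV reporter, lay between 42.4 and 62.8 CPM in all 9 libraries and did not separate BV+ from BV- libraries (log2 difference 0.05 with Ctrl and 0.00 with NRF1 OE; adjusted p = 1.0 and 0.998). The PGC genes Dppa3, Nanos3 and Tfap2c were lower in BV+ than in BV- libraries with NRF1 OE, by log2 differences of -0.65, -1.04 and -0.43 (adjusted p = 0.00536, 0.0035 and 0.0461). Of all 16903 genes tested, 186 were called higher in BV+ than in BV- libraries with Ctrl, and 9.90% with NRF1 OE (edgeR). Of the 7 PGC markers 0 were called higher in BV+ libraries, and together they summed to 347 to 365 CPM in BV+ and 373 to 525 CPM in BV- libraries. The germ cell identity of BV+ libraries was therefore not borne out by these markers, and BV+ and BV- below name the libraries as labelled. Counts followed the GC content of transcripts differently in the groups: Spearman's rho, taken across genes, of GC content with how far a library departed from the average lay between -0.505 and -0.398 in the 4 Ctrl libraries and between 0.0237 and 0.621 in the 5 NRF1 OE libraries. Of the 9 genes, Rara, Rarg, Crabp1 and Stra6 had GC-rich transcripts (59.2, 58.8, 57.4 and 56.3% GC, against a median of 49.8% over the genes tested), and this is given beside each NRF1 OE comparison.

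The promoters of Rarb and Cyp26a1, classic direct targets of retinoic acid receptors, held the direct repeat with 5 bases between half-sites (DR5) which these receptors bind. They are shown from 250 bases before to 50 bases after the annotated start (RefSeq, GRCm38.p6), 5′ to 3′ on the strand of the gene, with the match, 2 copies of GTTCA that have 6 bases (any letter) between their ends, or the reverse complement of this, in capitals.

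Rarb, chr14:16575427-16575726, minus strand: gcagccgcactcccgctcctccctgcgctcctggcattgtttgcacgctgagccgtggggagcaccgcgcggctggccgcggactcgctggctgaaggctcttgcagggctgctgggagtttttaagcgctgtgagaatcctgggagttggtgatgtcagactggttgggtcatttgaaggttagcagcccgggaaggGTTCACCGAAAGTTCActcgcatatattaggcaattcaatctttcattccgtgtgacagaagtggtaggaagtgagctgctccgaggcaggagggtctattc

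Cyp26a1, chr19:37697558-37697857, plus strand: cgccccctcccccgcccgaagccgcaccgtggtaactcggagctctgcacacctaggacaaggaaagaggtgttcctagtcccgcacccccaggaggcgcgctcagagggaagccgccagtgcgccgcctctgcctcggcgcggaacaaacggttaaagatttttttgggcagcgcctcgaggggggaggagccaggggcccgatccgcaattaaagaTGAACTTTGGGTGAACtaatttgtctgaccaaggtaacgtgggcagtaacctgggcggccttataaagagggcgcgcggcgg

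The match started at position -52 from the start site in Rarb and at -32 in Cyp26a1, where it lay on the opposite strand. This string was found in 0.0761% of 32851 promoter windows of the same length, searched on both strands, and among the 17 windows of the 8 members with an entry it was found in these 2 alone. A looser repeat, with GNTCA for both copies, added no member and was held by 0.861% of all windows, and the closer repeat of GNTCA with 3 bases between the copies (1.12% of windows) was found in 0 member windows. The NRF1 core, GCGCA followed by any base and GCGC, searched on both strands, was held by 4.6% of windows and among members by 1 of the 2 Rarg windows, shown here because NRF1 is the factor that was overexpressed.

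Rarg, chr15:102246451-102246750, minus strand: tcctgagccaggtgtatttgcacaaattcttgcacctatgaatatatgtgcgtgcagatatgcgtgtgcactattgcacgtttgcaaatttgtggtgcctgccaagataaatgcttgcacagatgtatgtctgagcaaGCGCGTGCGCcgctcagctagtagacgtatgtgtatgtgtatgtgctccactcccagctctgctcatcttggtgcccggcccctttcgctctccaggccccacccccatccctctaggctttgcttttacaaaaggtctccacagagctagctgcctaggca

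The match, in capitals, started at position -112. A match of letters does not show that a factor was bound there, and Crabp2 had no entry among the windows. The study measured NRF1 binding in BV+ PGCLCs by chromatin immunoprecipitation with sequencing, and those data were not used here.

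The 9 genes spanned a wide range of levels, and Rarg, Crabp1 and Rara led it. On the FPKM scale, which is per length and allows genes to be compared, Rarg lay between 16.4 and 29.3 FPKM, Crabp1 between 16.4 and 27.5 and Rara between 11.9 and 16.2 over the 9 libraries. Crabp2 ranged from 0.72 to 10.95 FPKM. The enzymes and the vitamin A receptor were low throughout: Cyp26a1 at 0.42 to 2.13 FPKM, Aldh1a2 at 0.55 to 1.37, Dhrs3 at 0.36 to 1.19 and Stra6 at 0.23 to 0.87, which rested on between 14 and 88 counts per library. Rarb was barely detected, with at most 7 counts and 0.07 FPKM. The ranges of Rarg and Crabp1 over all libraries overlapped, as did those of the enzymes and Stra6. Within groups, Aldh1a2 lay above Stra6 in all 4 without overlap, with means of 0.915 and 0.495 FPKM in BV+ NRF1 OE libraries and of 0.69 and 0.245 FPKM in BV+ Ctrl libraries.

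**Figure D1:**
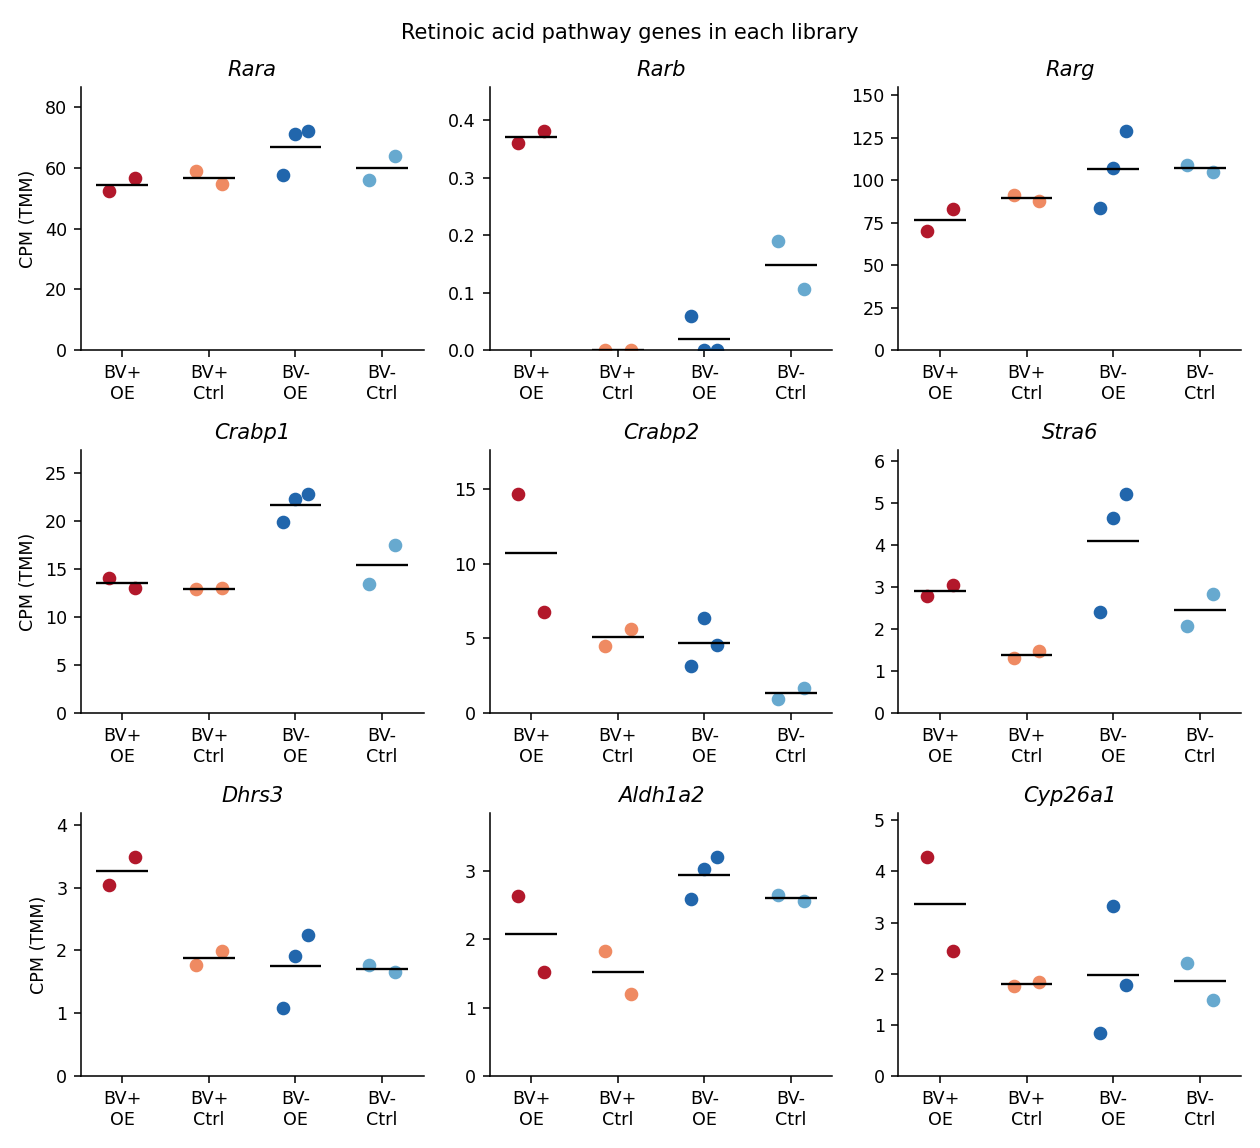
Level of each of the 9 genes (CPM with TMM scaling, axes starting at 0 and differing between genes) in each library of the 4 labelled groups; points are libraries and bars are group means. Crabp2 was lowest in BV- Ctrl libraries (0.945 and 1.71 CPM) and highest in BV+ NRF1 OE libraries (14.6 and 6.75 CPM).

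The question of the first comparison was what NRF1 OE does in BV+ cells. None of the 8 genes tested was called at an adjusted p under 0.05 (edgeR), where 8.02% of the 16903 genes tested were. An unadjusted p under 0.05 was reached by 3, against 32.5% of all genes, and DESeq2 on the same genes called 1, Crabp2. Crabp2, Stra6 and Dhrs3 passed the threshold the study used (unadjusted p under 0.05 and a log2 fold change beyond 0.58), which 17.0% of all genes passed. The median log2 fold change of the 8 genes was 0.63, against 0.04 over all genes tested.

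Crabp2, the carrier that delivers retinoic acid to its nuclear receptors, lay at 14.6 and 6.75 CPM with NRF1 OE and at 4.52 and 5.61 CPM with Ctrl. Both NRF1 OE libraries were above both Ctrl libraries, but replicate 1 stood well above replicate 2. The fold change was 1.07 in log2 units (edgeR, standard error 0.380, adjusted p = 0.0886), and without BV+ NRF1 OE replicate 1 it was 0.41.

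Stra6 lay at 2.78 and 3.05 CPM with NRF1 OE and at 1.31 and 1.47 CPM with Ctrl, and the groups did not overlap. NRF1 OE libraries exceeded Ctrl by 1.06 in log2 units (edgeR, standard error 0.378, adjusted p = 0.0907). The enzyme gene Dhrs3, whose transcription retinoic acid is known to induce, lay at 3.04 and 3.48 CPM with NRF1 OE and at 1.77 and 1.99 CPM with Ctrl. This was a log2 difference of 0.79 (standard error 0.324, adjusted p = 0.124, edgeR), again without overlap.

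The enzymes of synthesis and breakdown were less clear. Cyp26a1 lay at 4.28 and 2.45 CPM with NRF1 OE and at 1.77 and 1.84 CPM with Ctrl, so that both NRF1 OE libraries were higher but far apart (log2 difference 0.90, 95% interval -0.16 to 1.96, adjusted p = 0.215, edgeR). Aldh1a2, at 2.63 and 1.52 CPM against 1.83 and 1.21 CPM, overlapped between the groups (0.47, interval -0.28 to 1.22).

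Rarb was listed at 0 counts in both BV+ Ctrl libraries and at 7 counts in each BV+ NRF1 OE library. It did not pass the filter on low counts. Against a chosen floor of 3 counts summed over the Ctrl group, the 14 counts were 4.24-fold higher after scaling to library size. This is not a lower bound, since the sampling error of so few counts was not included. In BV- libraries Rarb had 1, 0 and 0 counts with NRF1 OE and 3 and 2 counts with Ctrl. Exons of Rarb overlap those of Top2b and Gm48162 on the opposite strand in the GRCm38 annotation, and whether the counting used strand is not stated. Top2b lay at 88.5 and 87.7 CPM in BV+ cells with NRF1 OE and at 85.2 and 98.1 CPM with Ctrl (log2 difference -0.06, adjusted p = 0.885, edgeR). In the other NRF1 OE comparisons Top2b and the Rarb counts went the same way: Top2b was lower with NRF1 OE in BV- cells (-0.83, adjusted p = 0.0362), and higher in BV+ than in BV- cells with NRF1 OE (0.89, adjusted p = 0.0195). Between BV+ and BV- libraries with Ctrl, Rarb had 0 and 0 counts against 3 and 2, while Top2b was slightly higher in BV+ libraries (0.12, with overlap and not called). The part of Top2b reads in the Rarb counts was not tested.

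The abundant genes differed little in BV+ cells. Rara lay at 52.3 and 56.6 CPM with NRF1 OE and at 58.8 and 54.7 CPM with Ctrl, with overlap (log2 difference -0.06, interval -0.37 to 0.25). Rarg, the more abundant receptor, lay at 70.4 and 83.2 CPM against 91.3 and 87.9 CPM, so that both NRF1 OE libraries were lower (-0.22, interval -0.60 to 0.16, adjusted p = 0.380, edgeR). Crabp1 lay at 14.1 and 13.1 CPM against 12.9 and 13.0 CPM, nearly level (0.07, interval -0.29 to 0.42).

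**Figure D2:**
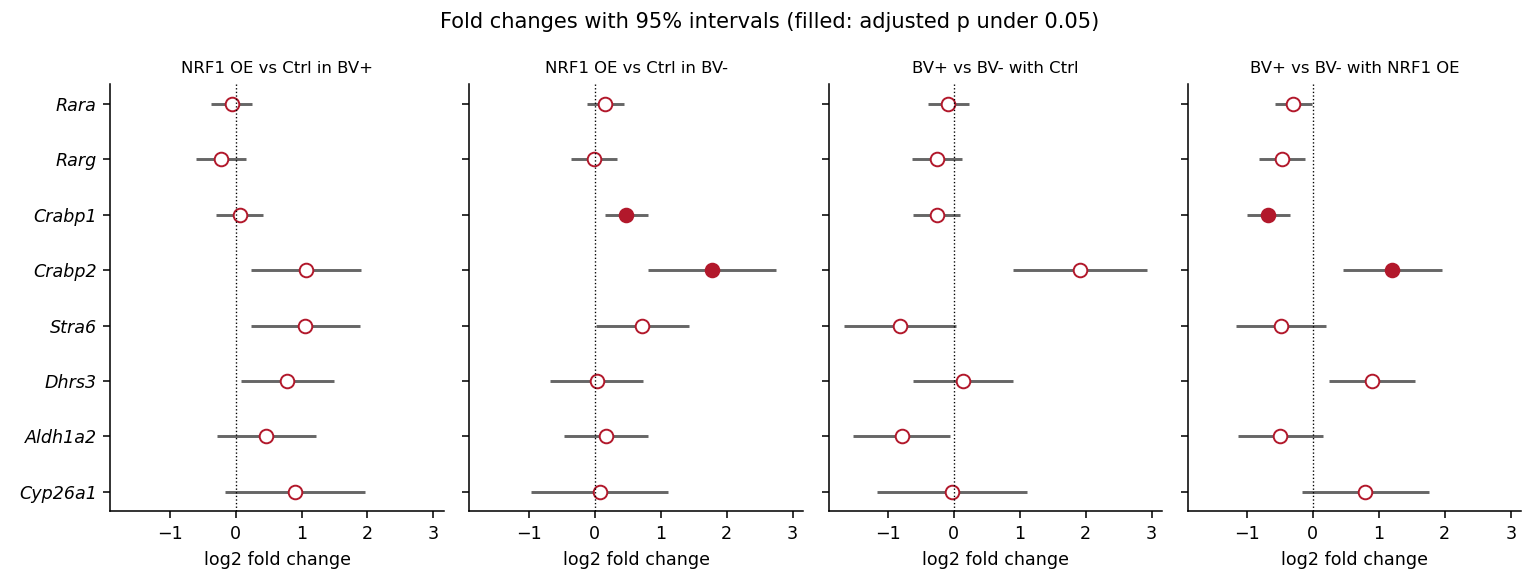
Log2 fold change of the 8 genes tested (points) with 95% intervals (lines) in 4 comparisons, from edgeR's fit of all 9 libraries; filled points had an adjusted p under 0.05. Filled points are Crabp1 and Crabp2 with NRF1 OE in BV- libraries (0.48 and 1.78) and the same genes between BV+ and BV- libraries with NRF1 OE (-0.67 and 1.21).

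The trend with GC content separated all NRF1 OE from all Ctrl libraries, so that it and the treatment cannot be told apart. At the GC content and length of Rara, Rarg and Crabp1 the fitted trend of the libraries alone differed by 0.39, 0.39 and 0.43 (log2) between NRF1 OE and Ctrl in BV+ cells. With an offset that removed this trend from every library, Rara and Rarg were called lower with NRF1 OE (-0.44 and -0.60, adjusted p = 0.0312 and 0.0326, edgeR), and Crabp1 turned from 0.07 to -0.37 (adjusted p = 0.111). Crabp2, Stra6 and Dhrs3 stayed above Ctrl with the offsets, at 0.91, 0.74 and 0.60, and were not called (adjusted p = 0.0956, 0.156 and 0.203).

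In BV- cells the same comparison called Crabp2 and Crabp1, both higher with NRF1 OE, or 2 of the 8 genes tested. Over all genes 17.2% were called and 10.2% were called higher. The study's threshold was passed by Crabp2 and Stra6, and by 16.0% of all genes. Crabp2 lay at 3.13, 6.34 and 4.56 CPM with NRF1 OE and at 0.945 and 1.71 CPM with Ctrl. All 3 NRF1 OE libraries were above both Ctrl libraries, and Crabp2 rose by 1.78 log2 units (edgeR, standard error 0.441, adjusted p = 0.0338).

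Crabp1, which holds retinoic acid in the cytoplasm and is often linked to its breakdown, lay at 19.9, 22.2 and 22.8 CPM with NRF1 OE against 13.4 and 17.5 CPM with Ctrl. The groups did not overlap, and Crabp1 rose by 0.48 log2 units (edgeR, standard error 0.146, adjusted p = 0.0454). With the GC content and length offsets its difference was 0.02 (adjusted p = 0.957), while Crabp2 remained called at 1.57 (adjusted p = 0.0463). The Crabp2 call was lost without BV- NRF1 OE replicate 3, without either BV+ Ctrl library or without either BV- Ctrl library (log2 fold changes 1.44 to 2.27, adjusted p from 0.0608 to 0.311), and the Crabp1 call was lost without any single library except BV- NRF1 OE replicate 1.

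The other genes were not called in BV- cells. Stra6 lay at 2.41, 4.64 and 5.21 CPM with NRF1 OE and at 2.08 and 2.83 CPM with Ctrl, and BV- NRF1 OE replicate 1 fell within the Ctrl range (0.72, interval 0.02 to 1.43, adjusted p = 0.119, edgeR). Dhrs3 and Cyp26a1 overlapped between the groups, with log2 differences of 0.03 and 0.07, and the interval of Cyp26a1 reached from -0.97 to 1.12. Aldh1a2 lay at 2.59, 3.02 and 3.20 CPM with NRF1 OE against 2.65 and 2.56 CPM (0.17), Rara at 57.6, 71.2 and 72.1 CPM against 56.0 and 63.9 CPM (0.16), and Rarg at 83.6, 107.1 and 129 CPM against 109 and 105 CPM (-0.01). With the offsets Rara turned to -0.23, Rarg was at -0.41 and Stra6 at 0.37 (adjusted p = 0.193, 0.0976 and 0.440). Cyp26a1 and Dhrs3 turned to -0.26 and -0.19, and none of these was called. In Stra6, Dhrs3, Cyp26a1, Aldh1a2, Rara and Rarg alike, the 3 BV- NRF1 OE libraries spread wider than the group means differed.

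**Figure D3:**
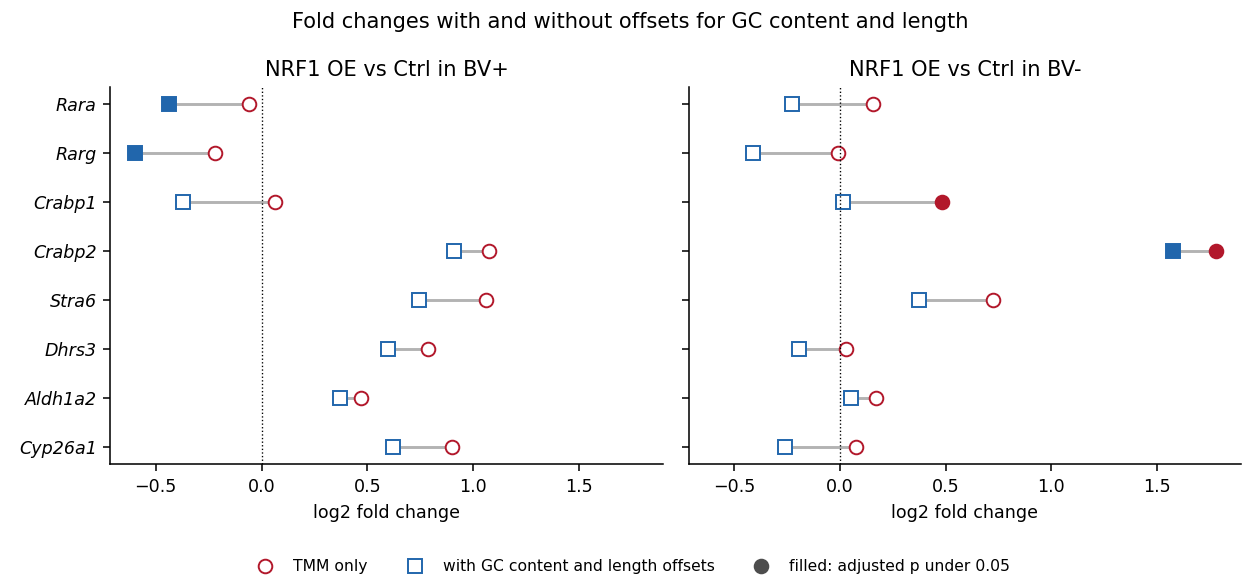
Log2 fold change of NRF1 OE against Ctrl for the 8 genes in BV+ (left) and BV- (right) libraries, with TMM scaling only (circles) and with offsets that remove the trend of every library with GC content and transcript length (squares); filled symbols had an adjusted p under 0.05. Every gene lies further left with the offsets, and Crabp1 in BV- libraries goes from 0.48 to 0.02.

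Whether NRF1 OE acted differently in BV+ and BV- cells was tested as an interaction. This was called for 0 of the 8 genes by edgeR and by DESeq2, and edgeR called 0 of all 16903 genes tested. An unadjusted p under 0.05 was reached by 0 members and by 5.51% of all genes (edgeR). The study's threshold was passed by 0 members and by 4.48% of all genes. Dhrs3 had a log2 difference of effects of 0.75 (interval -0.25 to 1.76), Cyp26a1 of 0.82 (-0.66 to 2.31), Crabp2 of -0.70 (-1.98 to 0.58) and Crabp1 of -0.42 (-0.89 to 0.06). These intervals are wide, and equal effects in the populations were not shown.

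The third comparison set BV+ against BV- cells with the empty vector. Again 0 of the 8 genes were called by edgeR, where 1.12% of all genes were, with 2 at an unadjusted p under 0.05 (7.77% of all genes) and 1, Crabp2, called by DESeq2 on the same genes. Crabp2 and Aldh1a2 passed the study's threshold, as did 5.74% of all genes. Crabp2 stood apart in size, at 4.52 and 5.61 CPM in BV+ libraries against 0.945 and 1.71 CPM in BV- libraries. The log2 difference was 1.91 (standard error 0.464, adjusted p = 0.0942, edgeR), with no overlap, and with the GC content and length offsets it was 2.02 and called (adjusted p = 0.0363).

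Aldh1a2 and Stra6 went the other way with Ctrl. Aldh1a2, the enzyme that makes retinoic acid, lay at 1.83 and 1.21 CPM in BV+ libraries and at 2.65 and 2.56 CPM in BV- libraries (log2 difference -0.79, interval -1.53 to -0.05, adjusted p = 0.58, edgeR). Stra6 lay at 1.31 and 1.47 CPM against 2.08 and 2.83 CPM (-0.82, interval -1.67 to 0.03, adjusted p = 0.669). Neither gene overlapped between the groups, and neither was called. Lack of overlap did not set them apart, since Rarg, Crabp1, Crabp2 and Dhrs3 did not overlap either. Rara (-0.08), Rarg (-0.26), Crabp1 (-0.26), Cyp26a1 (-0.03) and Dhrs3 (0.14) differed by less on the log2 scale.

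With NRF1 OE, the binding proteins differed between BV+ and BV- cells in opposite directions. Crabp2 was higher and Crabp1 lower in BV+ libraries, and these 2 of the 8 genes were called, against 13.8% of all genes (9.90% higher and 3.85% lower). The study's threshold was passed by these and Dhrs3, against 14.7% of all genes. Crabp2 lay at 14.6 and 6.75 CPM in BV+ libraries and at 3.13, 6.34 and 4.56 CPM in BV- libraries, without overlap but with 6.75 and 6.34 CPM next to each other. The log2 difference was 1.21 (standard error 0.344, adjusted p = 0.0387, edgeR). It was 0.54 without BV+ NRF1 OE replicate 1 (adjusted p = 0.427), and the call was also lost without BV- NRF1 OE replicate 1 or 3 or without either BV+ Ctrl library (0.98 to 1.21).

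Crabp1 lay at 14.1 and 13.1 CPM in BV+ libraries and at 19.9, 22.2 and 22.8 CPM in BV- libraries, well apart. Its log2 difference was -0.67 (standard error 0.147, adjusted p = 0.0108, edgeR), and -0.56 with the GC content and length offsets (adjusted p = 0.008). Leaving out either BV+ NRF1 OE library ended the call (-0.73 and -0.62, adjusted p = 0.0674 and 0.0718).

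The remaining genes were not called with NRF1 OE. Dhrs3 lay at 3.04 and 3.48 CPM in BV+ libraries and at 1.08, 1.92 and 2.25 CPM in BV- libraries (0.90, standard error 0.296, adjusted p = 0.0684, edgeR). Rarg and Rara were lower in BV+ libraries by log2 differences of -0.47 and -0.30 (adjusted p = 0.0752 and 0.157, edgeR). The groups did not overlap but nearly touched. BV+ NRF1 OE replicate 2 and BV- NRF1 OE replicate 1 were at 83.2 and 83.6 CPM for Rarg, and at 56.6 and 57.6 CPM for Rara. With the offsets Dhrs3, Rarg and Rara were called at 0.94, -0.50 and -0.36 (adjusted p = 0.025, 0.0234 and 0.0241). Cyp26a1 (0.80), Aldh1a2 (-0.49) and Stra6 (-0.48) had intervals that included 0.

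The ratio of the binding proteins within a library, which does not depend on library scaling, put these values together. It still carries the trend with GC content and length, for which no offset was applied. Between NRF1 OE and Ctrl the fitted trend (log2) differed by 0.43 for Crabp1 and 0.16 for Crabp2 in BV+ cells. In BV- cells it differed by 0.48 and 0.20. Crabp1 exceeded Crabp2 in every library on the FPKM scale, by 1.58 and 3.19 times in BV+ NRF1 OE libraries, 4.70 and 3.82 times in BV+ Ctrl libraries, 10.5, 5.79 and 8.24 times in BV- NRF1 OE libraries, and 23.5 and 16.8 times in BV- Ctrl libraries. The 4 groups did not overlap, and Crabp2 ranged from 0.72 to 10.95 FPKM over the libraries against 16.4 to 27.5 for Crabp1. Rarg made up 57.8 to 66.6% of the summed FPKM of the 3 receptors. The ratio of Cyp26a1 to Aldh1a2, breakdown to synthesis, was 1.85 and 1.82 in BV+ NRF1 OE libraries, 1.10 and 1.73 in BV+ Ctrl libraries, 0.375, 1.26 and 0.635 in BV- NRF1 OE libraries, and 0.949 and 0.673 in BV- Ctrl libraries, which overlapped between groups. Ratios were not tested.

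**Figure D4:**
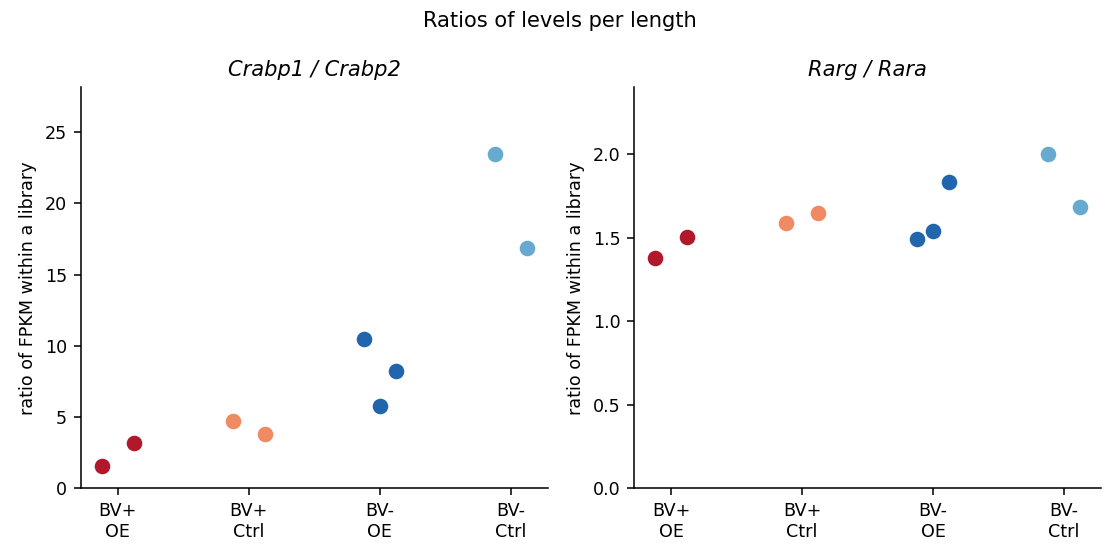
Ratio of FPKM of Crabp1 to Crabp2 (left) and of Rarg to Rara (right) within each library, by labelled group; points are libraries and both axes start at 0. The Crabp1 to Crabp2 ratio goes from 23.5 and 16.8 in BV- Ctrl libraries to 1.58 and 3.19 in BV+ NRF1 OE libraries, and the Rarg to Rara ratio stays between 1.38 and 2.00. No offsets for GC content and length were applied to the ratios.

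Some markers of other cell types moved with the BV label. Of 8 mesoderm markers, 5 were tested: Kdr was higher in BV+ libraries with Ctrl (log2 difference 1.75) and with NRF1 OE (3.73), and Hand1 with NRF1 OE (4.11). Pdgfra, another of the 5, was level between BV+ and BV- libraries, at means of 3.32 and 3.20 CPM with NRF1 OE and of 7.47 and 7.86 CPM with Ctrl, and was lower with NRF1 OE than with Ctrl in both (-1.17 in BV+ and -1.29 in BV- cells, adjusted p = 0.0174 and 0.0317, edgeR). The summed level of the mesoderm list was 23.7 to 35.4 CPM in BV+ NRF1 OE libraries, 17.0 to 19.8 in BV+ Ctrl, 5.82 to 6.28 in BV- NRF1 OE and 10.8 to 11.9 in BV- Ctrl libraries, while T, Mesp1, Mixl1, Foxf1 and Tbx6 had at most 18 counts in any library. Of 6 neuroectoderm markers, 5 were tested, and Nes was higher in BV+ libraries by 1.94 with Ctrl and by 2.96 with NRF1 OE. With NRF1 OE Sox1 was also higher (0.93), and Otx2, the most abundant of the list in BV- libraries, was lower (-0.43, adjusted p = 0.0461, edgeR). The summed level of that list was 201 to 231 CPM in BV+ NRF1 OE, 168 to 179 in BV+ Ctrl, 137 to 155 in BV- NRF1 OE and 151 to 164 in BV- Ctrl libraries, and Neurog1 had at most 2 counts. The endoderm list summed to 15.5 to 20.4 CPM in BV+ NRF1 OE, 22.3 to 23.7 in BV+ Ctrl, 19.1 to 33.0 in BV- NRF1 OE and 28.6 to 32.1 in BV- Ctrl libraries, with Apoa1 and Afp lower in BV+ libraries with NRF1 OE (-2.70 and -1.56). Of 7 pluripotency markers, Tbx3 was higher (1.15) and Pou5f1 and Esrrb lower (-0.52 and -0.35) in BV+ libraries with NRF1 OE, and the list summed to 2230 to 3127 CPM over the libraries. Against Ctrl, NRF1 OE libraries had 4 of the 7 PGC markers called higher in BV- cells and 1 in BV+ cells. Over all genes tested, 10.2% were called higher in BV- cells, and 1054 of 16903 in BV+ cells (edgeR). The part of these cell types in the values of Crabp2 and Crabp1 was not tested. In bulk RNA, fewer cells of a type and less RNA per cell cannot be told apart.

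The wider pathway was described with 57 further genes in 3 lists, of which 47 were tested. With NRF1 OE in BV+ cells 5 of the 47 were called, 4 higher and 1 lower, where 8.02% of all genes were. Of 18 tested genes of retinoid metabolism and transport 1 was called, the retinal reductase gene Dhrs4 (0.65, adjusted p = 0.0398, edgeR). Of 15 receptor partners and coregulators 2 were called: Rxra, the partner of all 3 receptors, at 53.2 and 65.0 CPM with NRF1 OE against 33.1 and 35.1 CPM with Ctrl (0.80, adjusted p = 0.0188), and Ppard, a nuclear receptor for fatty acids (0.59, adjusted p = 0.0458).

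Of 14 tested genes known to respond to retinoic acid, Nr2f2 (COUP-TFII) was higher and Foxa1 lower with NRF1 OE in BV+ cells. Nr2f2 lay at 6.58 and 11.5 CPM against 3.41 and 3.83 CPM (1.32, adjusted p = 0.0379, edgeR), and Foxa1 at 0.163 and 0.464 CPM against 1.18 and 1.42 CPM (-2.02, adjusted p = 0.0411). The list's median was -0.25, so it did not move one way. With the offsets, 4 of the 5 called genes were kept and 15 in all were called. The share of all genes called with the offsets was not taken, so this rise cannot be read as particular to the pathway. The count fell to 0 without BV+ NRF1 OE replicate 1 or either BV+ Ctrl library, to 1, 3 and 2 without BV- Ctrl replicate 1, BV- Ctrl replicate 2 and BV- NRF1 OE replicate 3, and it was 11 and 20 without BV+ NRF1 OE replicate 2 and BV- NRF1 OE replicate 2.

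In BV- cells NRF1 OE was followed by 7 called genes of the 47, 3 higher and 4 lower, against 17.2% of all genes. The higher ones included Rxrb (0.56) and Retsat, which saturates retinol (0.51). The corepressor genes Ncor1 (-0.72) and Nrip1 (-0.64) and the acetyltransferase gene Kat2b (-0.69) were lower, with adjusted p between 0.0317 and 0.0459 for these 5 genes (edgeR). Stra8, the retinoic acid target that marks entry into meiosis, lay at 1.47 to 4.21 CPM with NRF1 OE and at 5.61 and 8.76 CPM with Ctrl (-1.36, adjusted p = 0.0375). In BV+ cells it lay at 1.91 and 3.81 CPM with NRF1 OE and at 6.75 and 7.13 CPM with Ctrl (-1.28). DESeq2 called this difference and the main edgeR fit did not. EdgeR called it in BV+ cells with the offsets, but not with the replicate block. With the offsets 1 of these 7 genes, Stra8, stayed called in BV- cells. Without BV- NRF1 OE replicate 3 or any Ctrl library, 0 of the 47 genes were called, and without BV- NRF1 OE replicate 1 there were 13.

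Between BV+ and BV- cells with Ctrl, 1 of the 47 genes was called, Nr2f2 at 3.41 and 3.83 CPM against 0.214 and 0.504 CPM (3.35, adjusted p = 0.00644, edgeR), where 1.12% of all genes were. It was the only gene of the 47 called higher in BV+ libraries both with Ctrl and with NRF1 OE. The call was lost without BV+ Ctrl replicate 2 or BV- Ctrl replicate 2, and 3 genes were called without BV- NRF1 OE replicate 2.

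With NRF1 OE, 11 of the 47 genes differed between BV+ and BV- cells, 9 higher and 2 lower in BV+ libraries, against 13.8% of all genes. In retinoid metabolism, Aldh1a3, another enzyme that makes retinoic acid, lay at 1.63 and 2.16 CPM in BV+ libraries and at 0.181 to 0.368 CPM in BV- libraries (2.86, adjusted p = 0.00345, edgeR). Cyp26c1, which breaks retinoic acid down, lay at 1.41 and 2.83 CPM against 0 to 0.241 CPM (3.99, adjusted p = 0.0046, on few counts). Rdh10, which oxidizes retinol to retinal, was higher as well, at 7.73 and 8.35 CPM against 3.85 to 5.30 CPM (0.76, adjusted p = 0.0236). The retinol carrier genes Ttr (-2.27) and Rlbp1 (-0.54) were lower, and Ttr is also a marker of endoderm, like Apoa1 and Afp above.

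Among the targets, Nr2f2 (3.86), the homeobox gene Meis1 (3.02) and Tshz1 (1.60) were higher in BV+ libraries with NRF1 OE, with adjusted p = 3.5e-05, 4.4e-05 and 0.00502 (edgeR). Meis1 lay at 6.69 and 8.45 CPM against 0.737 to 1.24 CPM, with no overlap. Among receptor partners and coregulators Rxra (0.51), Ppard (0.54) and Nrip1 (1.30) were higher. Nr2f2 and Meis1 are also expressed in mesoderm, and the part of mesoderm in these values was not tested. Of its markers, Kdr differed in the same direction, while Pdgfra was level (means of 3.32 and 3.20 CPM in BV+ and BV- NRF1 OE libraries). All 11 genes stayed called with the offsets, 7 stayed called without BV- NRF1 OE replicate 3 and 4 without BV+ NRF1 OE replicate 1. For the difference of effects 0 of the 47 genes were called by edgeR or DESeq2, and edgeR called 0 of all 16903 genes tested. An unadjusted p under 0.05 was reached by 4 of the 47 and by 5.51% of all genes (edgeR).

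**Figure D5:**
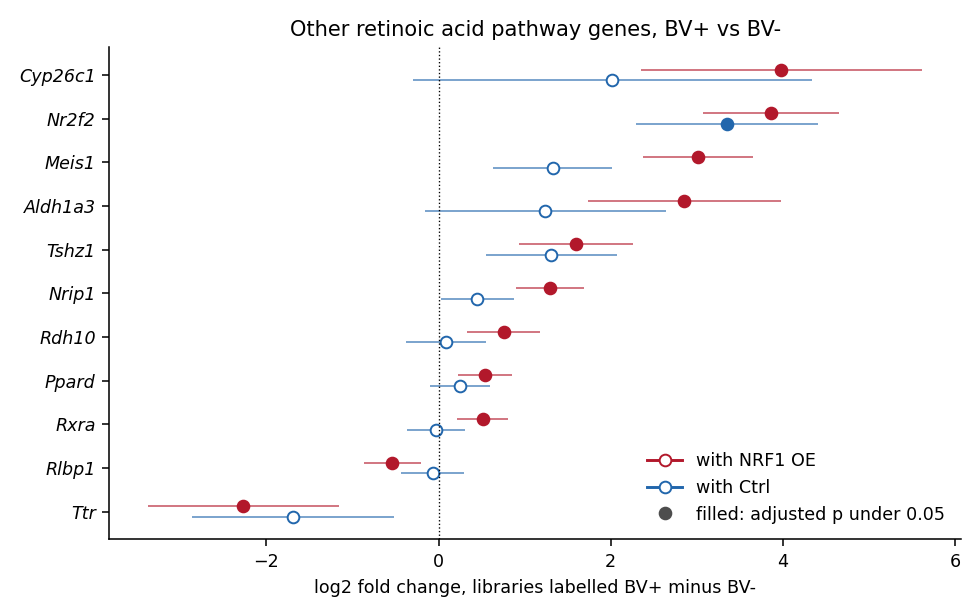
Log2 difference between BV+ and BV- libraries, with 95% intervals, for the 11 other pathway genes called with NRF1 OE (red) and for the same genes with Ctrl (blue); filled points had an adjusted p under 0.05. Nr2f2 is filled in both (3.86 and 3.35), and the other 10 genes are filled with NRF1 OE alone. The test of the difference called 0 of them and 0 of all 16903 genes tested.

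The genes whose profiles over the 9 libraries lay closest to those of the members were also listed, by the mean absolute gap of centred log2 CPM among tested genes with a mean of at least 5 CPM. Crabp2, with a range of 3.80 log2 units, was nearest to Six6, Ptn and Mogat2 at gaps of 0.30 to 0.31, larger gaps than for any other member. Dhrs3 was nearest to Rhobtb1, Bmp7 and Ube2j1 (0.11 to 0.14), Cyp26a1 to Pth1r, Stard8 and Maff (0.22), Stra6 to Tmem160, Myl9 and Tmem121 (0.19 to 0.22), and Aldh1a2 to Hpdl, Zfp593 and Angptl4 (0.15 to 0.17). The gaps were smaller for Rara, Rarg and Crabp1, whose nearest genes were in turn Rtn4ip1, Dmtn and Wfs1 (0.03 to 0.04), Ccnd1, Tuba3b and Gse1 (0.06 to 0.07), and Smpdl3b, Acacb and Ahcyl (0.05).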

How the data were processed

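Poly(A) RNA-seq of 9 libraries in 4 groups was used. The authors aligned reads with HISAT2 2.0.1 to GRCm39 and counted them with HTSeq 0.6.1, per the labels and methods. The deposited tables gave raw counts per gene, used for all tests, and FPKM computed by the authors, used only to compare levels between genes. Whether the counting used strand is not stated. Every row named a gene (0 without an identifier). Groups were taken from the sample titles.

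Counts were fitted with edgeR 4.0.16 (R 4.3.3, limma 3.58.1): TMM scaling, filterByExpr (16903 of 56691 genes kept), 1 term for each of the 4 groups, and 2-sided quasi-likelihood tests whose p-values were adjusted over every tested gene by the Benjamini-Hochberg method. A gene was called at an adjusted p under 0.05, and the common biological coefficient of variation was 0.129. The share of all genes without overlap between groups was not taken. With 2 or 3 libraries a group, lack of overlap alone therefore does not set a gene apart. Depth ranged from 13702162 to 19625460 counts. Members below about 90 counts per library (the enzymes, Stra6 and part of the Crabp2 range) are correspondingly imprecise. GC content and transcript length came from the GRCm38 annotation for 98.6% of the genes tested, and offsets were fitted per library with natural splines. Promoter windows came from RefSeq (GRCm38.p6), with motifs searched on both strands. The steps were tested on simulated data.

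The text names all 9 members, and genes of the other lists only where called, at most 4 per list, comparison and direction. The values of 1 gene that this rule names are not reported here. Marker genes are named as checks of the labels. Genes of like profile are the nearest 3 among tested genes with a mean of at least 5 CPM, on log2 CPM with a prior count of 2. The members and lists were chosen with earlier results of these data known. Alternatives were DESeq2 1.42.0, other scalings and filters, only the groups compared, GC content and length offsets, a replicate block, the study's threshold and leaving out each library. Figures were drawn with matplotlib 3.10.9 (Python 3.11.15).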

Additional observations from a re-analysis of the deposited data

How the results depend on the processing

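The call counts rest on 2 or 3 libraries a group, and genes under about 90 counts per library could show only large differences. Of the member fold changes recomputed under the alternatives, 707 kept direction and side of the threshold, 34 gained and 32 lost a call, and 27 changed direction. Most of these were not called in the main fit, so the tally says little about the calls. In BV- cells the Crabp1 and Crabp2 calls were kept in 5 and 12 of 20 alternatives. Between BV+ and BV- cells with NRF1 OE they were kept in 17 and 13 of 20. The causes were not tested unless the alternative's construction shows them. In what follows, counts are of members and then of other pathway genes called (0 and 5 for NRF1 OE in BV+ cells, 2 and 7 in BV- cells, 0 and 1 between BV+ and BV- cells with Ctrl, 2 and 11 with NRF1 OE, and 0 and 0 for the difference of effects). Shares of all genes called were taken for the main fit and the study's threshold only. A rise or fall of a count under another alternative can therefore not be read as particular to these genes.

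For NRF1 OE in BV+ cells, DESeq2 on the same genes called 1 and 10, DESeq2 on only the groups compared and without a filter (both changed at once) 1 and 14, the fit of only the groups compared 2 and 18, no filter 3 and 17, the offsets 2 and 15, and the study's threshold 3 and 16. A filter at a mean count of 10 called 8 other genes, library size alone 3, and the replicate block 0, or 1 member when combined with the offsets. In BV- cells this DESeq2 fit of only the groups compared, without a filter, called 1 member, the groups compared alone 0 and 0, library size alone 1, no filter 1 and 12, and the offsets 1 and 2. With Ctrl, DESeq2 called 1 and 2 in both forms, the groups compared alone 1 and 6, no filter 1 and 5, the offsets 1 member, and the study's threshold 2 and 7. With NRF1 OE, DESeq2 on only the groups compared and without a filter called 7 other genes, the groups compared alone 1 and 7, no filter 4 members, and the offsets 5 and 20. For the difference of effects, no filter called 1 other gene and the study's threshold 3.

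Leaving out 1 library gave 0 to 2 members and 0 to 20 other genes for NRF1 OE in BV+ cells, 0 to 3 and 0 to 13 in BV- cells, 0 to 1 and 0 to 3 with Ctrl, 0 to 3 and 4 to 15 with NRF1 OE, and 0 and 0 for the difference. Directions turned in Rara (-0.11 to 0.000796) for NRF1 OE in BV+ cells, in Rarg (-0.17 to 0.14), Cyp26a1 (-0.51 to 0.45) and Dhrs3 (-0.21 to 0.29) in BV- cells, in Cyp26a1 (-0.31 to 0.27) with Ctrl, and in Aldh1a2 (-0.15 to 0.63) for the difference. Directions also turned for Rarg in BV- cells with upper-quartile scaling (0.00736) and for Dhrs3 with library size alone (-0.00774). With the offsets they turned for Crabp1 in BV+ cells (-0.37), for Rara (-0.23), Cyp26a1 (-0.26) and Dhrs3 (-0.19) in BV- cells, and for Cyp26a1 with Ctrl (0.00172).

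The correlations of replicate differences between groups lay between -0.243 and 0.246. They were taken without the offsets, and the GC trend differed between replicates of the NRF1 OE groups. The check can therefore not decide whether libraries of the same number were paired. With the replicate block, 0 members and 0 other genes were called in BV- cells and 0 and 7 between BV+ and BV- cells with NRF1 OE, and Dhrs3 in BV- cells turned to -0.22. With the block and the offsets 0 and 0 were called in BV- cells, and values there were -0.28 for Rara, -0.0551 for Crabp1, -0.0214 for Aldh1a2, -0.22 for Cyp26a1 and -0.44 for Dhrs3, with -0.37 for Crabp1 in BV+ cells and 0.000598 for Cyp26a1 with Ctrl. Crossing the replicate numbers of the Ctrl groups, chosen after seeing the data, called 2 and 8 with Ctrl.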
